A study of Mus musculus with 6 samples.

Results

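Microtubule motors were compared between primary megakaryocytes labelled p45-/- and WT, both grown from mouse fetal livers at E13.5 on the C57BL/6 background. The p45-/- cells are null for p45, which the gene Nfe2 encodes and which pairs with a small Maf protein to form the transcription factor NF-E2. The WT cells are labelled wild type. Each group held 3 samples, from independent experiments per the series' design, and each sample was read on its own one-colour Agilent array. The motor genes were taken by symbol: every gene beginning with Kif, Klc, Dync, Dynl or Dctn except Kif11, Kif20a and Kif23. The mouse gene table used for names held 72 such genes, 59 of them had a probe on the array, and 51 were tested among 18206 genes. A gene was tested where every array of 1 group or the other read a probe of it well above background, and 47 of the 51 met this on all 6 arrays. The labels' source field names cultured megakaryocytes, while their extraction protocol names whole embryos, and this contradiction could not be settled from the labels. No label describes how the allele was made or how pure the cultures were.

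Kinesins and cytoplasmic dynein are enzymes that walk along microtubules, most kinesins towards the plus end and dynein towards the minus end, and carry organelles, vesicles and RNA. Kinesin-1 couples heavy chains of the Kif5 genes to light chains of the Klc genes, and dynein works with dynactin, a large complex that links it to cargo. In megakaryocytes dynein is known to slide microtubules along one another while proplatelets lengthen, and motors carry granules and organelles to the proplatelet tips, whereas mitotic kinesins build the spindle that megakaryocytes reuse without dividing when they become polyploid. NF-E2 is a transcription factor without which mouse megakaryocytes release very few platelets.

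The tested genes fell into classes by known role. The cargo motors comprised 18 transport kinesins and their adaptors, 4 kinesin light chains, 9 subunits of cytoplasmic dynein 1 and 6 subunits of dynactin. The mitotic kinesins numbered 8, and 6 genes belonged to ciliary and other motors. The class borders are partly a choice. Kif2a was placed with the other motors and Kif2c with the mitotic kinesins, and Kif26a, which lacks motor activity, with the transport kinesins. A further 8 genes had probes that did not pass. The probes of Kif17, Kif27, Kif2b and Kif6 were well above background on 0 of the 6 arrays, while the best probes of Dynlrb2, Dync1i1, Kif26b and Kif1a were above it on 2, 3, 3 and 4 arrays. No probe was named for the other 13: Dynlt1a, Dynlt1c, Dynlt1f, Dynlt1-ps1, Kif14, Kif16bos, Kif19a, Kif22-ps, Kif28, Kif4-ps, Kifc1, Kifc2 and Kifc5c-ps. Values for Dynlt1b and Kifc5b are uncertain because near-identical gene copies can hybridise to the same probe, and those for Kif4 and Kif22 are open to signal from a listed pseudogene.

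The array signal before scaling differed between arrays, with a 75th percentile of 142 to 628 intensity units, and 58.3% to 65.3% of probes were well above background. The first p45-/- array stood apart: its correlation with the others across genes was 0.782 to 0.884, against 0.941 to 0.984 among the other 5. Differences without it are given beside the values it moves most. Such differences keep the first WT array, whose deviations from its group mean correlated with those of the first p45-/- array at 0.647. They are therefore unbalanced by replicate number and can lie outside the range of the same-numbered pairs. The Nfe2 probe read -0.17 (log2 p45-/- minus WT, SE 0.57) and its groups overlapped (adjusted p = 0.923, limma). Where that probe lies relative to the deleted sequence was not analysed here, so it does not check the labels. All 16 megakaryocyte markers were above background on every array. Their summed level ranged from 960 to 2019 times the array's 75th percentile in p45-/- and from 1202 to 2205 in WT. Markers of other cells were also present, among them 14 erythroid genes with a summed level of 474 to 2198 in p45-/- and 370 to 836 in WT. Hepatoblast and hepatocyte markers were higher for 7 of 7 tested (median difference 1.19), stromal markers for 7 of 8 (0.56) and mast cell markers for 2 of 3 (0.66), while neutrophil and macrophage markers were lower for 8 of 8 (-0.57). These medians were 1.5, 0.99, 0.13 and -0.82 without the first p45-/- array. In the first pair 5 of 7 hepatoblast and hepatocyte markers (median -0.17) and 7 of 8 stromal markers were lower. Without replicate 1 of both groups the hepatoblast and hepatocyte median was 1.78 and the stromal median 1.28. The mast cell median was then -0.24, with 2 of 3 mast cell markers lower. No listed marker on the array was below background on every array. The part of these cells in the motor values was not tested.

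All levels below are log2 signal minus the log2 75th percentile of the same array, and all differences are p45-/- minus WT on that scale. Across the 51 motor genes 0 passed an adjusted p of 0.05 in limma's moderated test, as did 0 of all 18206 genes (0.0%). Blocking on the replicate number, 5 genes passed (0.0275%) and again 0 motor genes. At an unadjusted p under 0.05, 1 motor gene was higher, against 2.63% of all genes, and 0 were lower, against 3.33%. The kinesin light chain gene Klc3 was that 1 gene, and it was also the 1 motor gene with all p45-/- arrays above all WT arrays (4.78% of all genes). Dync1h1 and Kif22 were the 2 with all p45-/- arrays below all WT arrays (8.44% of all genes). Klc3 and Kif26a were the 2 whose group means differed at least 2-fold upwards (14.6% of all genes), and 0 differed as much downwards (3.69%). These shares for the motor genes are no larger than those over all genes. In bulk RNA, fewer cells of a type and less RNA per cell cannot be told apart. For 8 of the 51 genes the 95% interval of the difference lay wholly within 2-fold in either direction, and for the others the interval reached past 2-fold.

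**Figure D1:**
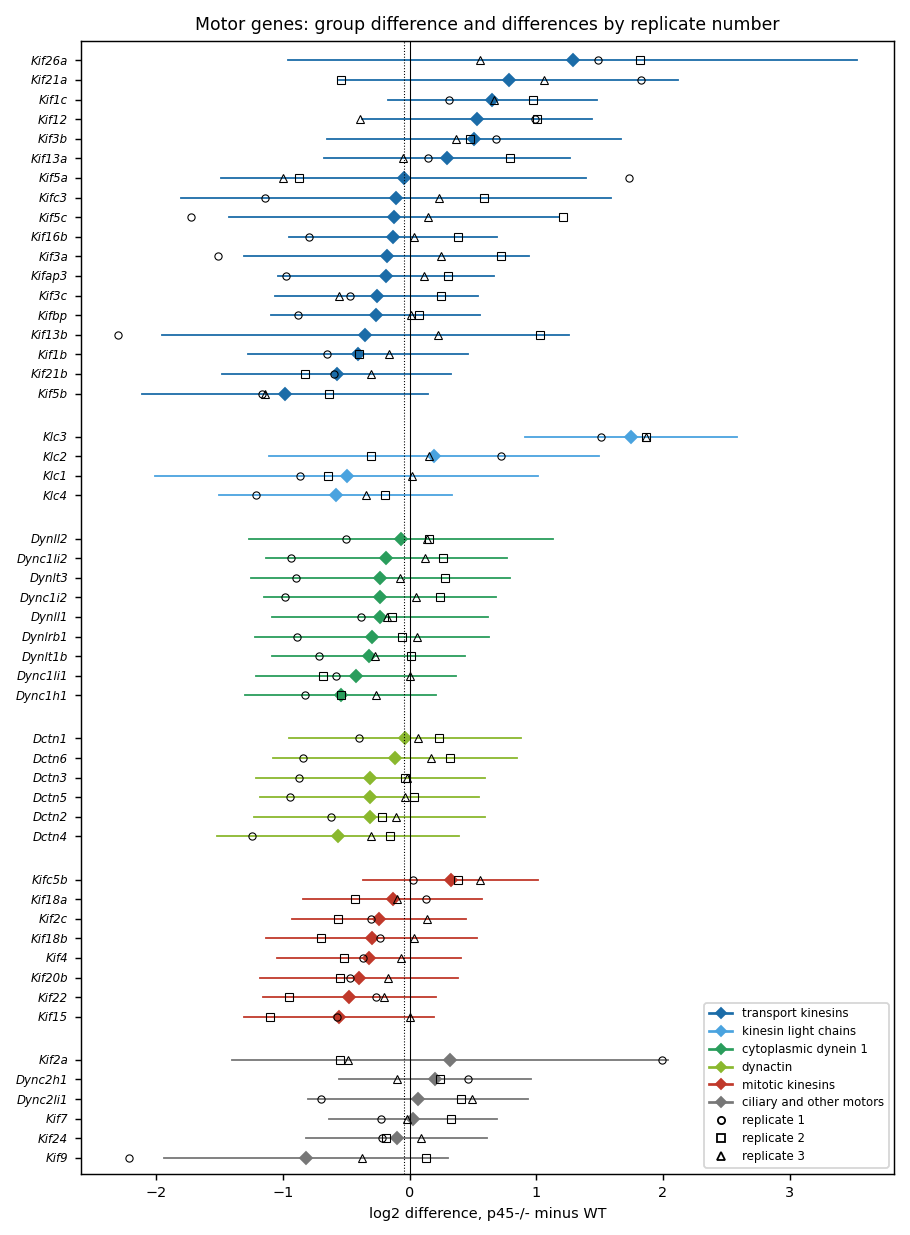
Difference of each of the 51 motor genes (x axis, log2 p45-/- minus WT; rows, genes by class). Diamonds are the differences of group means, lines their 95% intervals from limma, open symbols the differences between arrays of the same replicate number, the solid line 0 and the dotted line the median of all genes at -0.048. Klc3 alone has an interval that leaves out 0, and most circles, which involve the first p45-/- array, lie left of the squares and triangles among cargo motors.

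Klc3, a light chain known mainly from male germ cells of rats, gave the clearest difference of the motor genes. Its level was -0.91, -1.11 and -1.46 on the p45-/- arrays and -2.42, -2.97 and -3.33 on the WT arrays. Every p45-/- array lay above every WT array, with a gap between the groups wider than the spread within p45-/-. The difference was 1.75 (SE 0.35, n = 3 per group, 95% interval 0.91 to 2.58), a 3.35-fold higher level in p45-/-. Over all genes limma gave an adjusted p of 0.392, or of 0.0848 once replicates were blocked. The exact two-sided permutation p was 0.1, the smallest that 3 arrays against 3 can give. The same-numbered arrays differed by 1.51, 1.86 and 1.87, so the difference was as large without the first pair (1.86). Within slide 2, which held replicates 1 and 2, it was 1.69, and within slide 1, which held replicate 3, it was 1.87. Weighting the arrays by their estimated quality gave 1.91 with an adjusted p of 0.0162 in limma, and over all alternatives that adjusted p ran from 0.0162 to 0.998. That weighting called 514 of all genes (2.82%) and 1 motor gene, Klc3, and gave the first p45-/- array a weight of 0.0967. The Klc3 difference was smaller, at 1.23, with another background correction, normexp, and at 1.23 with scaling by the array median. Its adjusted p was then 0.729 and 0.645 in limma. Klc3 had only 1 probe on the array, so no second probe could check it.

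Erythroid markers moved with Klc3. Of the 14 tested, 13 had higher means in p45-/-, with a median difference of 1.78, and 7 had groups that did not overlap upwards (4.78% of all genes). The median was 1.68 without the first p45-/- array. Their summed level on p45-/- arrays 1, 2 and 3 was 2198, 1027 and 474, and on WT arrays 836, 535 and 370. Within each group the arrays with more erythroid signal also had the higher Klc3 level. Across groups this order did not hold. The third p45-/- array had a lower summed level (474) than the first and second WT arrays (836 and 535). Its Klc3 level was higher, at -1.46 against -2.42 and -2.97. The part of erythroid RNA in the Klc3 difference was not tested.

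The promoter of Klc3 is shown because it is 1 of the 2 motor promoters, with that of Dctn2, that hold AGATAA, a motif of GATA factors. These factors are known regulators of both erythroid and megakaryocyte genes. The window runs from 250 bases before to 50 bases after the annotated transcript start, at chr7:19404055-19404354 on the minus strand (RefSeq, GRCm38.p6), and is printed 5′ to 3′ with the motif in capitals, 201 bases before the start.

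Klc3: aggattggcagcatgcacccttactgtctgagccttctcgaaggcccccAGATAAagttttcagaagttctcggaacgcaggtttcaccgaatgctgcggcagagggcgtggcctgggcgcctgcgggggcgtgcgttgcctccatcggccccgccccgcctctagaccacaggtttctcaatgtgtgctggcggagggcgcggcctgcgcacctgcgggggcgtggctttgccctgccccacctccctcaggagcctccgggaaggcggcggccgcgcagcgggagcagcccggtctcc

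Motifs were searched on both strands in 45 promoters of 39 tested motor genes, since some genes have several annotated starts. AGATAA occurred in 2 of the 45, against 11.2% of all 32851 promoters of the table. The NF-E2 motif GCTGAGTCA occurred in 0 of 45 and in 0.454% of all, and its core TGAGTCA, which is contained in it, in 0 of 45 and in 5.20% of all. A match describes letters in this window and no binding was measured. The other 12 tested genes had no entry.

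The other light chains, which tie kinesin-1 to its cargo, did not share the pattern of Klc3. Klc4 had levels of 0.68, 1.92 and 1.5 in p45-/- and 1.89, 2.11 and 1.84 in WT, a difference of -0.58 (SE 0.38, adjusted p = 0.704, limma). Klc1, the widely expressed light chain, had levels of 0.08, 1.95 and 1.53 in p45-/- and 0.95, 2.59 and 1.51 in WT, a difference of -0.50 (SE 0.63, adjusted p = 0.795, limma). For both genes the groups overlapped and the first p45-/- array was the lowest of the 6. Without replicate 1 of both groups the difference was -0.27 for Klc4 and -0.31 for Klc1. Without the first p45-/- array alone it was -0.24 for Klc4 and 0.06 for Klc1. Klc2 differed by 0.19 (SE 0.54) with pairs on both sides of 0, and by -0.35 without that array.

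Kif5b, the widely expressed heavy chain of kinesin-1, had the lowest difference among the 51 genes. Its level was 3.12, 4.46 and 4.15 on the p45-/- arrays and 4.29, 5.10 and 5.29 on the WT arrays. The groups overlapped, because the second p45-/- array lay above the first WT array, but each p45-/- array was below the WT array of its own number. The difference was -0.98 (SE 0.47, n = 3 per group, 95% interval -2.11 to 0.15, adjusted p = 0.704, limma), and the exact permutation p was 0.2. The pairs differed by -1.17, -0.64 and -1.14, and a second probe of the gene gave -1.23. With the replicate block Kif5b was the 1 motor gene lower at an unadjusted p under 0.05 (5.97% of all genes were), with an adjusted p of 0.149 in limma. Without replicate 1 of both groups the difference was -0.89, and without the first p45-/- array alone it was -0.59. Within slides 2 and 1 it was -0.90 and -1.14.

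Kif5a and Kif5c, the other heavy chain genes of kinesin-1, are best known from neurons, and their probes spread widely. Kif5a had levels of 0.04, -1.0 and -1.80 in p45-/- and -1.69, -0.12 and -0.80 in WT, so the groups overlapped fully. Its difference of -0.05 (SE 0.60) became -0.53 without the first p45-/- array and -0.94 without replicate 1 of both groups. For Kif5c the probe used gave -0.12 and a second passing probe gave 2.78. That second probe passed through p45-/- alone, as 2 of 3 WT arrays read it well above background. On the second probe the first p45-/- array read 0.34, while the other p45-/- arrays read -2.83 and -4.56. No statement on the direction of Kif5c can be drawn from probes that differ this much.

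Kif1c, a transporter of Golgi-derived and dense-core vesicles, was on the higher side. It read 0.37, 0.09 and 0.04 in p45-/- and 0.07, -0.88 and -0.62 in WT. The WT values overlapped with p45-/- through the first WT array alone. The difference was 0.65 (SE 0.34, adjusted p = 0.704, limma; exact permutation p = 0.2), the pairs were 0.31, 0.98 and 0.67, and the 3 passing probes gave 0.51 to 0.67. Leaving out the first replicate of both groups gave 0.82, and within slides 2 and 1 it was 0.64 and 0.67. Together with Klc3, Kif3b, Kif26a and Kifc5b it made up the 5 motor genes that were higher in all 3 pairs, against 23.3% of all genes.

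Kif21b, a kinesin that also limits microtubule growth, was lower in all pairs. Its levels were 3.01, 3.63 and 3.89 in p45-/- and 3.61, 4.45 and 4.19 in WT, with overlap. The difference was -0.57 (SE 0.38, adjusted p = 0.704, limma). It was -0.33 without the first p45-/- array and -0.56 without replicate 1 of both groups. Kif1b, which carries mitochondria and synaptic vesicle precursors, had levels of -0.30, 0.38 and 0.70 in p45-/- and 0.35, 0.78 and 0.86 in WT. It differed by -0.41 (SE 0.36, adjusted p = 0.727, limma), and again every pair was lower while the groups overlapped. Kif1b differed by -0.13 without the first p45-/- array and by -0.28 without replicate 1 of both groups.

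Subunits of kinesin-2, which serves cilia and vesicle transport, showed no common direction. Kif3a had levels of -0.62, 0.71 and 0.08 in p45-/- and 0.89, -0.01 and -0.16 in WT, and its pairs of -1.51, 0.72 and 0.25 disagreed in sign. Its difference of -0.18 (SE 0.47) became 0.16 without the first p45-/- array and 0.14 without the first WT array. Its adaptor Kifap3 gave -0.19 (SE 0.36) and became 0.08 in the same way. Its partner Kif3b gave 0.51 (SE 0.48) with pairs of 0.68, 0.48 and 0.37. It gave 0.097 without the first p45-/- array and 0.42 without replicate 1 of both groups. None of the 3 passed the test (adjusted p of 0.900, 0.863 and 0.736, limma). Kif13a, which carries recycling endosomes and mannose 6-phosphate receptors, gave 0.30 (SE 0.41, adjusted p = 0.807, limma), and its 3 probes gave 0.25 to 0.38. Its difference was 0.57 without the first p45-/- array and -0.036 without the second.

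Among the remaining transport kinesins, differences ran from -0.35 for Kif13b to 1.29 for Kif26a. Kif26a, a kinesin-like protein without motor activity that acts in signalling in mice, is named after its values were seen. It read -2.40, -4.06 and -5.57 in p45-/- and -3.89, -5.87 and -6.13 in WT, where 1 of 3 arrays read it well above background, so it was tested through p45-/- alone. The groups overlapped, and the spread within each exceeded 2 log2 units. The difference was 0.48 without the first p45-/- array and 1.19 without replicate 1 of both groups. Its adjusted p of 0.704 became 0.134 once replicates were blocked (limma), a fit in which Kif26a and Klc3 were the 2 motor genes higher at an unadjusted p under 0.05 (14.4% of all genes). Kif21a, a relative of Kif21b, was higher by 0.78 (SE 0.56) with pairs of 1.83, -0.54 and 1.06, and was above background on 2 of 3 WT arrays. It was higher by 0.29 without the first p45-/- array. Kif12 gave 0.53 (SE 0.38) with pairs of 0.99, 1.01 and -0.39.

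The others lay closer to 0 and were lowest on the first p45-/- array or nearly so. Kifbp, a protein that binds kinesins and is no motor itself, read 1.29, 2.21 and 2.17 in p45-/- and 2.17, 2.14 and 2.16 in WT. Its WT arrays and the other p45-/- arrays lay within 0.1 of one another, and its difference of -0.27 (SE 0.34) became 0.034 without the first. Kifc3, a minus-end kinesin, read -0.09, 2.55 and 1.97 in p45-/- and 1.05, 1.96 and 1.74 in WT, and its difference of -0.11 (SE 0.71) became 0.68 without that array. Kif16b, which moves early endosomes, gave -0.13 (SE 0.34), and Kif3c, another kinesin-2 heavy chain, gave -0.26 (SE 0.33). Without that array they gave 0.15 and -0.14. Kif13b had pairs of -2.30, 1.03 and 0.23, so its sign changed between pairs, and its difference of -0.35 became 0.39 without that array.

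As a class the transport kinesins had 12 of 18 means lower, with a median difference of -0.13. The median over all 18206 genes was -0.048, with 53.6% lower. The class medians by replicate number were -0.62, 0.43 and 0.07, so the sign came from the first pair. Without replicate 1 of both groups 5 of the 18 were lower, the median was 0.28, and the median of all genes was 0.087.

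**Figure D2:**
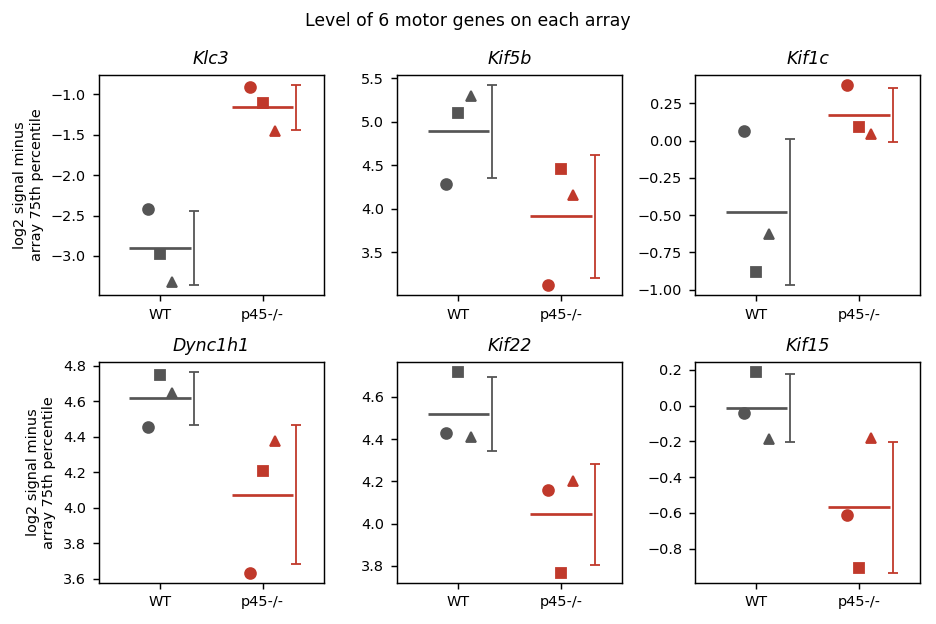
Level of 6 motor genes on each array (y axis, log2 signal minus the array's 75th percentile; each gene on its own scale), with WT in grey and p45-/- in red. Circles, squares and triangles are replicates 1, 2 and 3, horizontal lines group means and vertical bars 1 SD each way. Klc3 separates upwards and Dync1h1 and Kif22 downwards, while Kif5b, Kif1c and Kif15 overlap.

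Cytoplasmic dynein 1 had 9 of 9 tested subunits lower by group mean (53.6% of all genes), with a narrow range from -0.54 to -0.07 and a median of -0.23. Dync1h1, the heavy chain that holds the motor, was the 1 subunit whose groups did not overlap. It read 3.63, 4.21 and 4.38 in p45-/- and 4.46, 4.75 and 4.64 in WT, so that its highest p45-/- array lay just below its lowest WT array. The difference was -0.54 (SE 0.31, n = 3 per group, 95% interval -1.30 to 0.21, adjusted p = 0.704, limma), and the exact permutation p was 0.1. A second probe gave -0.35. Without the first p45-/- array the difference was -0.32, and within slides 2 and 1 it was -0.68 and -0.27.

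Dync1li1, a light intermediate chain that binds cargo adaptors, read -0.52, -0.67 and 0.20 in p45-/- and 0.07, 0.02 and 0.20 in WT. It differed by -0.42 (SE 0.33, adjusted p = 0.710, limma), and its pair numbered 3 differed by 0.0015. Dync1i2, the intermediate chain that joins dynein to dynactin, read 3.82, 4.96 and 4.89 in p45-/- and 4.81, 4.72 and 4.84 in WT. The WT arrays lay close together, 2 of the p45-/- arrays lay above all of them and the first lay far below. Its difference of -0.23 (SE 0.38) became 0.13 without that array.

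The light chains, which bind the intermediate chain and many other partners, followed the same course. Dynll1 read 5.21, 5.91 and 6.05 in p45-/- and 5.59, 6.05 and 6.22 in WT, a difference of -0.23 (SE 0.36) that was lower in every pair. Dynll2 read 2.77, 4.19 and 4.25 in p45-/- and 3.27, 4.04 and 4.11 in WT, a difference of -0.07 (SE 0.50). Without the first p45-/- array Dynll1 differed by 0.023 and Dynll2 by 0.41, and without the second or the third WT array Dynll2 differed by 0.047 or 0.081. Without replicate 1 of both groups Dynll1 differed by -0.16 and Dynll2 by 0.15. Dynlt1b gave -0.32, Dynlrb1 -0.30, Dynlt3 -0.23 and Dync1li2 -0.18, and without the first p45-/- array -0.090, 0.071, 0.19 and 0.16 in the same order. Adjusted p over the 9 subunits was at least 0.704 in limma.

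The dynein medians by replicate number were -0.82, 0.015 and 0.0015. All 9 subunits were lower in the first pair, against 4 of 9 in each of the second and the third. Without replicate 1 of both groups 5 of 9 were lower (41.6% of all genes), with a median of -0.0027. The count of 9 of 9 thus rested on 1 pair of arrays.

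Dynactin repeated the pattern of dynein. Its 6 tested subunits were all lower by group mean (53.6% of all genes), with a median of -0.31 and 0 of 6 without overlap. Dctn4, a subunit of the pointed end of the complex, read 0.53, 1.79 and 1.6 in p45-/- and 1.78, 1.95 and 1.91 in WT, a difference of -0.57 (SE 0.40, adjusted p = 0.704, limma). A second probe of Dctn4 gave -0.46. Only the second p45-/- array reached the WT range, and only just. Without the first p45-/- array the difference was -0.18.

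Dctn2, dynamitin, read 3.11, 4.16 and 3.86 in p45-/- and 3.73, 4.38 and 3.96 in WT, and differed by -0.32 (SE 0.38, adjusted p = 0.785, limma), lower in every pair. It differed by -0.017 without the first p45-/- array and by -0.16 without replicate 1 of both groups. Dctn5, another pointed-end subunit, gave -0.32 (SE 0.36), and its 3 probes gave -0.53 to -0.32. Dctn1, the subunit that grips the microtubule, gave -0.04 (SE 0.38) with pairs of -0.40, 0.23 and 0.07. Without the first p45-/- array Dctn5 differed by -0.00042 and Dctn1 by 0.26, and without the second WT array Dctn1 differed by 0.11. The class medians by replicate number were -0.86, -0.0001 and -0.029. Without replicate 1 of both groups 4 of 6 were lower (41.6% of all genes) with a median of -0.015.

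The mitotic kinesins, which assemble spindles, move chromosomes and complete cytokinesis, had 7 of 8 means lower (53.6% of all genes) and a median of -0.31. Kif22, a chromosome-binding kinesin, was the 1 whose groups did not overlap. It read 4.16, 3.77 and 4.20 in p45-/- and 4.43, 4.72 and 4.41 in WT, and each p45-/- array was below each WT array. The difference was -0.47 (SE 0.28, n = 3 per group, 95% interval -1.16 to 0.21, adjusted p = 0.704, limma), and the exact permutation p was 0.1. It was -0.53 without the first p45-/- array, -0.61 within slide 2 and -0.21 within slide 1. Under quantile normalization it was -0.15.

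Kif15, a spindle kinesin that can stand in for Kif11, read -0.61, -0.91 and -0.18 in p45-/- and -0.04, 0.19 and -0.18 in WT. The third pair was level while the other p45-/- arrays lay below all WT arrays, and the difference was -0.55 (SE 0.31, adjusted p = 0.704, limma). Kif20b, which acts in cytokinesis, read -2.00, -1.71 and -1.23 in p45-/- and -1.53, -1.15 and -1.06 in WT. Its groups overlapped in part, every pair was lower, and the difference was -0.40 (SE 0.33, adjusted p = 0.720, limma). Kif4, which shapes chromosomes and the spindle midzone, read 1.58, 1.94 and 2.10 in p45-/- and 1.94, 2.46 and 2.17 in WT. Its difference was -0.32 (SE 0.30, adjusted p = 0.736, limma), also lower in every pair. These differences were -0.53 for Kif15, -0.22 for Kif20b and -0.17 for Kif4 without the first p45-/- array.

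The other mitotic kinesins differed less. Kif18b, which trims astral microtubules, gave -0.30 (SE 0.35), and Kif2c, which removes faulty microtubule attachments at centromeres, gave -0.24 (SE 0.29). Kif18a, which dampens chromosome movements at the spindle equator, gave -0.13 (SE 0.29) with pairs of 0.13, -0.43 and -0.10. Kifc5b, a minus-end spindle motor, was the 1 higher gene at 0.32 (SE 0.29), higher in every pair. Kif18b gave -0.13, Kif2c -0.17, Kif18a -0.096 and Kifc5b 0.41 without the first p45-/- array. Their adjusted p was at least 0.727 in limma. The 3 mitotic kinesins outside the symbol rule gave -0.41 for Kif11, -0.54 for Kif20a and -0.01 for Kif23, with overlap in each.

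The mitotic medians by replicate number were -0.29, -0.56 and -0.033, so the lower values came from the first and second pairs. By pair 6, 7 and 4 of 8 were lower. With levels centred on each gene's mean, the second WT array had the highest class median, at 0.36. Without replicate 1 of both groups 7 of 8 were lower (41.6% of all genes) with a median of -0.31, which rested mainly on the second pair. Markers of cycling cells moved with this class. Of 12 such markers 12 were lower, with a median of -0.31 and medians by replicate number of -0.28, -0.53 and -0.090. The median was -0.18 without the first p45-/- array, and -0.11 under quantile normalization, with 8 of 12 lower. Their summed level was 113, 126 and 151 on the p45-/- arrays and 131, 195 and 156 on the WT arrays. The part of a different share of cycling cells in the mitotic kinesin values was not tested.

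Promoters of mitotic kinesins are shown because they share a motif that most cargo motor promoters lack. The cell cycle genes homology region, CHR, is known from promoters of genes active late in the cell cycle, and was searched as TTTGAA on both strands. It occurred in 7 of 8 mitotic kinesin promoters (87.5%), the exception being Kif18a. It occurred in 1 of 30 cargo motor promoters (3.33%), that of Dctn1, and in 17.9% of all promoters. The CCAAT box, searched as CCAAT, occurred in 50% of the mitotic, 40.0% of the cargo and 37.4% of all promoters. The 3 below cover the same window as for Klc3 (RefSeq, GRCm38.p6) and are printed 5′ to 3′ with the CHR letters in capitals, where TTCAAA is the motif on the other strand. Kif22 lies at chr7:127042371-127042670 on the minus strand, Kif20b at chr19:34922108-34922407 on the plus strand and Kif4 at chrX:100625815-100626114 on the plus strand.

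Kif22: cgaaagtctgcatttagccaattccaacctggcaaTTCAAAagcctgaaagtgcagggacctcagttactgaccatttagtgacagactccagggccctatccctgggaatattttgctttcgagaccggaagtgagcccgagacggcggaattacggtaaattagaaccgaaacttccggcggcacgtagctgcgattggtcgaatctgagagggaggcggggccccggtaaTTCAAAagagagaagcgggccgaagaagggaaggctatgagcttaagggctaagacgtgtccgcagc

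Kif20b: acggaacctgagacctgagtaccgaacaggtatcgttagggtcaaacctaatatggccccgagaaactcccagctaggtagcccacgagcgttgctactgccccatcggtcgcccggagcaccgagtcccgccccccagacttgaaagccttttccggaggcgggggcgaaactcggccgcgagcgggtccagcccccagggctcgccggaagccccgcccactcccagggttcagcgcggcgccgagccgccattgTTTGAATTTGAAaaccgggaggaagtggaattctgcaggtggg

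Kif4: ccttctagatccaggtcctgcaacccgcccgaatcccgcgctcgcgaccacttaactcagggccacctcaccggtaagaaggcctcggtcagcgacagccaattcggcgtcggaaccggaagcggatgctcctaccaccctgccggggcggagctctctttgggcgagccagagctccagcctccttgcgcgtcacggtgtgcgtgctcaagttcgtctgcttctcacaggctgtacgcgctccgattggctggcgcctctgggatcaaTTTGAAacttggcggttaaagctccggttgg

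Kif22 holds the motif 215 and 17 bases before the start. Kif20b holds it in tandem, at 8 and 14 bases after the start, and Kif4 holds it 20 bases after the start. These matches are descriptions of the sequence, and whether they bear on the array values was not tested.

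**Figure D3:**
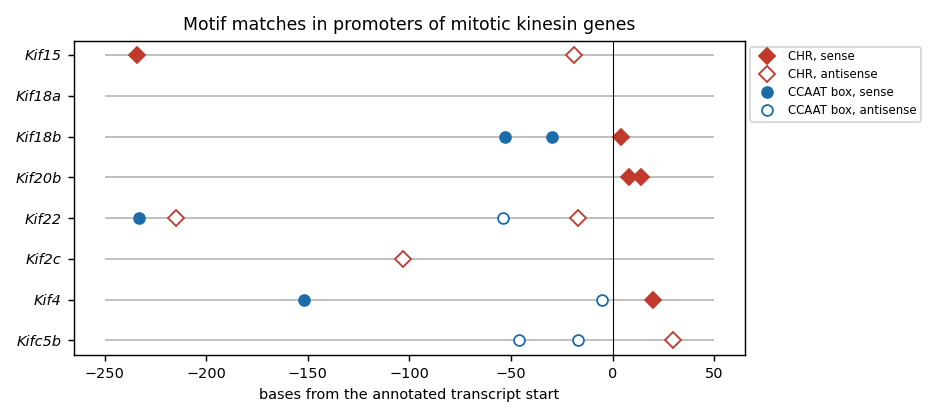
Position of CHR (TTTGAA) and CCAAT matches in the promoters of the 8 tested mitotic kinesin genes (x axis, bases from the annotated transcript start at 0; rows, genes). Filled symbols are matches on the sense strand and open symbols on the antisense strand. All but Kif18a hold a CHR match, and Kif15, Kif18b, Kif20b, Kif22, Kif4 and Kifc5b hold one near the start.

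All cargo motors counted as 1 class had 29 of 37 means lower (53.6% of all genes). Their median was -0.23, against -0.31 for the mitotic kinesins and -0.048 for all genes. The medians differed by 0.078, less than the 0.37 pooled SD of that difference between arrays of a group. By replicate number the cargo median was -0.80, 0.15 and 0.020 and the mitotic median -0.29, -0.56 and -0.033, while that of all genes was -0.37, 0.12 and 0.06. In the first pair the cargo median lay below that of all genes and the mitotic median did not, in the second pair the reverse held, and in the third pair all 3 medians were near 0. Without replicate 1 of both groups, 17 of 37 cargo motors were lower (45.9%, against 41.6% of all genes) with a median of 0.10, against 0.087 for all genes. The mitotic median stayed at -0.31. Without the first p45-/- array alone the cargo median was 0.08 and the mitotic median -0.17.

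The scale also moved these medians. Quantile normalization gave -0.086 for cargo motors, -0.36 for mitotic kinesins and -0.026 for all genes. Scaling by the array median gave -0.74, -0.82 and -0.56. Relative to the median of all genes, cargo motors were at -0.18, -0.06 and -0.18 and mitotic kinesins at -0.26, -0.34 and -0.26 under the 75th percentile, quantile and median scaling. By group mean 14 of 16 megakaryocyte markers were also lower, with a median of -0.56. The marker medians by replicate number were -0.77, -0.34 and -0.52, against -0.80, 0.15 and 0.020 for cargo motors. For mitotic kinesins they were -0.29, -0.56 and -0.033. The 3 markers lower without overlap (8.44% of all genes) were Gp6 at -6.09, Clec1b at -4.53 and Selp at -2.82. The 2 that were not lower were Pf4 at 0.08 and Ppbp at 4.3e-05. The median of the 16 markers was 0.013 without the first p45-/- array and -0.43 without replicate 1 of both groups. The part of a different share of megakaryocytes in the motor values was not tested.

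**Figure D4:**
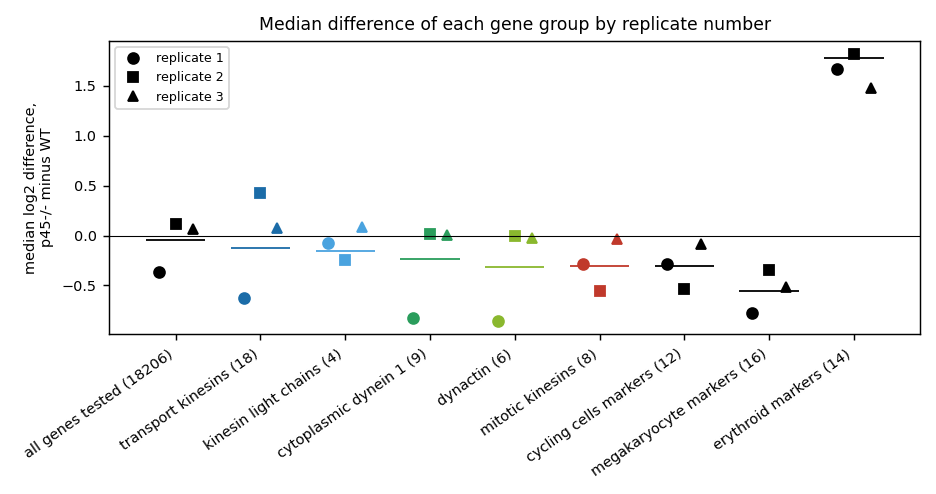
Median difference of motor classes, marker lists and all genes tested (x axis, with the number of genes), by replicate number (y axis, log2 p45-/- minus WT). Symbols are the same-numbered pairs and short lines the medians of the group differences. Replicate 1 is the lowest symbol for transport kinesins, dynein, dynactin and all genes, and replicate 2 for mitotic kinesins and cycling markers.

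Counted by pairs, 12 of the 51 motor genes were lower in all 3, against 23.6% of all genes, which is near the same share. These were 9 cargo motors and 3 mitotic kinesins. In the pairs numbered 2 and 3 alone 15 of 51 were lower in both, against 29.2% of all genes. The counts of genes whose groups do not overlap depended on single arrays. Without p45-/- array 1, 2 or 3 they were 3, 9 and 7 lower and 7, 2 and 2 higher. Without WT array 1, 2 or 3 they were 10, 4 and 3 lower and 5, 2 and 2 higher, partly because fewer arrays overlap less often. The shares over all genes with fewer arrays are not given here, so these counts cannot be read against them.

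The ciliary and other motors had 2 of 6 means lower (53.6% of all genes) and a median of 0.045. Kif9, known from the sperm tail, read -4.79, -3.73 and -3.86 in p45-/- and -2.58, -3.85 and -3.49 in WT. Its difference of -0.82 (SE 0.47, adjusted p = 0.704, limma) was widest in the first pair at -2.21 and became -0.49 without the first p45-/- array, and only 2 of the 3 p45-/- arrays read the probe well above background. With another background correction, normexp, it was 0.18. Dync2h1, the heavy chain of the dynein that works in cilia, gave 0.20 (SE 0.32), or 0.28 without the first p45-/- array, and its 4 passing probes ran from -0.40 to 0.20. Without the first WT array its difference was -0.0098. Kif7 at 0.03 and Dync2li1 at 0.06, both known from cilia, and Kif24 at -0.10, known from centrioles, were closest to 0.

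Kif2a, a kinesin that takes microtubules apart at their ends, showed how far 1 array could decide a value. It read 5.25, 2.58 and 2.77 in p45-/- and 3.26, 3.13 and 3.25 in WT. The WT arrays lay close together, and the first p45-/- array lay above them while the others lay below. The difference of 0.32 (SE 0.72, adjusted p = 0.883, limma) became -0.54 without that array, and the second passing probe gave -1.06 over all arrays. Of the 24 motor genes with several passing probes, 18 had probes of a single sign, and Kif2a, Kif5c, Kif3a, Kifbp, Kifc3 and Dync2h1 did not.

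Proteins that steer or load motors were read from a list of 34 tested partners. Of these 22 were lower (53.6% of all genes), with a median of -0.17 against -0.048 for all genes. The test was passed by 0, and 3 had groups that did not overlap downwards (8.44% of all genes) and 2 upwards (4.78%). The median was 0.025 without the first p45-/- array (0.069 for all genes). It was 0.057 without replicate 1 of both groups (0.087 for all genes), where 15 of 34 were lower (41.6% of all genes). Dclk1, a microtubule-binding kinase, read -2.81, -3.89 and -3.79 in p45-/- and -4.62, -4.85 and -4.77 in WT, where 2 of 3 arrays read it well above background, so it was tested through p45-/- alone. All p45-/- arrays lay above all WT arrays, and the difference was 1.25 (SE 0.37, adjusted p = 0.657, limma), or 0.90 without the first p45-/- array. With array weights it was 0.96 with an adjusted p of 0.0390 in limma, in a range of 0.0390 to 0.998 over the alternatives. Since the filter was met through the group where Dclk1 is higher, this p gives no separate support. Dclk1 is also 1 of the 2 partners counted above as not overlapping upwards. Only 1 of its 6 probes passed, and its difference was 0.74 with normexp. Nin, ninein, which anchors microtubules at centrosomes and takes part in activating dynein, read -0.39, 0.08 and 0.51 in p45-/- and 0.73, 1.07 and 0.79 in WT. The groups did not overlap and the difference was -0.80 (SE 0.33, adjusted p = 0.704, limma), or -0.57 without the first p45-/- array.

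The MAP7 family, which recruits kinesin-1 to microtubules, pointed in both directions. Map7d3 read -1.71, -2.58 and -2.69 in p45-/- and -3.70, -3.19 and -2.86 in WT, without overlap, and differed by 0.92 (SE 0.40, adjusted p = 0.704, limma), or by 0.61 without the first p45-/- array. Map7d2 overlapped between groups and differed by 2.63 (SE 1.37, adjusted p = 0.704, limma), with the first p45-/- array at -0.56 and the others at -4.80 and -5.06. It too was tested through p45-/- alone, as 1 of 3 WT arrays read it well above background, and it differed by 1.18 without the first p45-/- array. Its WT levels were -4.68, -7.84 and -5.80. With normexp Map7d2 differed by 0.93, and within slide 1 by 0.74. Map7d1 read 3.24, 3.62 and 3.70 in p45-/- and 4.21, 3.94 and 3.71 in WT, lower without overlap by a narrow margin, and differed by -0.44. Map7 overlapped and differed by -0.57 (adjusted p = 0.704 for both genes, limma).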

How the data were processed

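Arrays of 3 p45-/- and 3 WT megakaryocyte samples were used, grouped by title. Cy3 marked the amplified total RNA, per the labels' protocols. The authors' deposited intensities are background-subtracted, spatially detrended processed signals of Agilent Feature Extraction, version 10.7.3.1 per the file headers and 10.1 per the submitters' processing notes. The deposited value table held the same intensities on a linear, uncentred scale, to within 0.497%, and its column medians were 20.9 to 42.0.

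Control spots were dropped, flagged spots (32 to 80 per array) set to missing, spots of a probe averaged, and log2 taken minus the array's 75th percentile. Probes were named by accession through a RefSeq table of GRCm38.p6: 26690 of 41174 probes had a name. Of all probes 23952 passed the background filter, and the probe with the highest mean stood for a gene, giving 18206 genes, 12943 with a symbol. The group difference was fitted in R 4.3.3 by limma 3.58.1 (lmFit, then eBayes), two-sided, and p was adjusted over all genes by Benjamini-Hochberg. The fit was tested on simulated data with 200 genes changed by 4 on the log2 scale. It recovered 152 of them with 6 false calls, and smaller changes were not simulated. No spot was saturated, and 1 quality metric was out of range, on WT array 2. The number of arrays limits the precision.

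Deviations of same-numbered arrays from their group means correlated at 0.647, 0.589 and 0.271, all above 0.1, the limit set for taking the numbers as pairs. No label states such a pairing. The reported tests are unpaired, and the fit blocked on the number is an alternative, printed where it moved a count or p of interest. The third p45-/- array correlated more with the second WT array, at 0.616. Slide 1 carried replicate 3 of each group and slide 2 the rest, and each slide had its own scan.

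The motor genes, classes, partner and marker lists were chosen with earlier results of these data known, so no list was given a test of its own. Genes were named if called, if among the 3 of a class that did not overlap with the largest difference or had the smallest p, or if on a list of textbook members. Partners were named by smallest p. Other members, and Map7 and Map7d1, are given to account for a class or family, a choice made with their values in view. The alternatives comprised a replicate block, a slide block, each slide alone, quantile and median scaling, the value table, other probe rules, array weights and leaving out arrays. Another 2 were chosen after seeing the data: leaving out replicate 1 of both groups, and normexp correction (offset 50) on the median signal, since the files give no mean signal.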

Additional observations from a re-analysis of the deposited data

How the results depend on the processing

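Over 19 alternative settings the 7 summaries of the motor genes gave 130 values, of which 107 kept their direction and size within the limits set. Of 624 values for 33 named genes 52 turned in direction, and 16 genes, among them Klc3, Kif5b, Kif1c, Dync1h1, Kif22, Kif4 and Kif20b, turned in none. The replicate block changed no call of a motor gene (0 passed in either fit). Array weights gave 1 call, Klc3. The medians of all motor genes, cargo motors and mitotic kinesins were -0.743, -0.743 and -0.820 with median scaling, a shift shared by all genes, and the mitotic median was -0.033 within slide 1, where each group has 1 array and no test. Genes without overlap, 2 lower and 1 higher, became 7 and 3 within slide 2, 12 and 15 without replicate 1 of both groups, and 3 to 10 and 2 to 7 leaving out 1 array, where fewer arrays make gaps more frequent by construction. The shares over all genes in these settings are not given here, so such counts do not set the motor genes apart. The higher count was 2 with normexp and 2 with quantile normalization, and the lower count was 1 with median scaling and 4 with the mean of all passing probes. Turned differences within slide 1 were 0.065 for Dctn1, 0.050 for Dync1i2, 0.0015 for Dync1li1, -0.096 for Dync2h1, 0.14 for Dynll2, -0.053 for Kif13a, 0.0045 for Kif15, -0.48 for Kif2a, 0.14 for Kif2c, 0.25 for Kif3a, 0.11 for Kifap3 and 0.020 for Klc1. With normexp they were 0.066 for Kif18a and 0.18 for Kif9. With quantile normalization they were 0.20 for Dctn1, 0.086 for Dync1i2, 0.081 for Dynll1, 0.21 for Dynll2, 0.0094 for Dynlt1b and -0.12 for Kif13a. With median scaling they were -0.31 for Dync2h1, -0.22 for Kif13a and -0.19 for Kif2a, and with the mean of all passing probes -0.098 for Dync2h1 and -0.37 for Kif2a. With array weights they were 0.24 for Dctn1, 0.023 for Dctn5, 0.090 for Dync1i2, 0.14 for Dynll2, -0.49 for Kif2a, 0.44 for Kif3a and 0.071 for Kifap3. Without replicate 1 of both groups they were 0.15 for Dctn1, 0.14 for Dync1i2, 0.15 for Dynll2, -0.52 for Kif2a, 0.49 for Kif3a and 0.21 for Kifap3. Leaving out 1 array gave -0.32 to 0.26 for Dctn1, -0.43 to 0.13 for Dync1i2, -0.42 to 0.023 for Dynll1, -0.34 to 0.41 for Dynll2, -0.54 to 0.80 for Kif2a, -0.51 to 0.16 for Kif3a, -0.37 to 0.079 for Kifap3, -0.88 to 0.055 for Klc1, -0.036 to 0.57 for Kif13a and -0.0098 to 0.31 for Dync2h1. Apart from the named constructions, the cause was not tested. Probes such as those of Kif9, Kif13b, Kif21a and Kif26a, above background on part of the arrays, give the least certain differences.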
